A study of Mus musculus with 6 samples.

Results

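Kupffer cells are the resident macrophages of the liver. The 40 genes described here mark these cells or myeloid cells in general, and they were chosen by name from a list of resident Kupffer cell and general macrophage markers. All 40 had a probe set that the array's annotation pairs with 1 gene symbol only, out of 18193 genes so represented, and each gene was read from its brightest probe set over all arrays. Livers came from male C57BL/6 mice aged 6 weeks, with 1 array per mouse. The 3 KO mice carried a conditional knockout of p14 in the liver, and the 3 WT mice, labelled p14 WT, served as controls. p14 is the protein of Lamtor2, an adaptor on late endosomes and a subunit of Ragulator, the complex that recruits the Rag GTPases and mTORC1 to lysosomes. The promoter that drove the deletion, the cells in which it took place and the p14 and Cre alleles of the WT mice are not stated in the labels. Mice were gender matched, and each mouse is a separate biological replicate per the labels.

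Kupffer cells sit in the sinusoids, where they take up bacteria, endotoxin, aged red cells and apoptotic cells from portal blood. Their survival depends on signalling through the CSF1 receptor, and the ETS factor PU.1 (Spi1) is required for the myeloid lineage. Engulfed material is passed through endosomes to lysosomes for digestion. In RNA from a whole liver sample, fewer macrophages and less RNA per macrophage cannot be told apart.

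Values are log2 expression levels as the authors deposited them, and all differences are KO minus WT on that scale. Lamtor2 measured 10.08, 10.19 and 10.11 on KO 1, KO 2 and KO 3, against 11.32, 11.29 and 11.35 on WT 1, WT 2 and WT 3. It was lower on every KO array (difference -1.19, limma adjusted p = 0.0104), and the 3 KO arrays lay close together. Between 43.5% and 43.9% of probe sets reached a log2 level of 4 on each array. The 18S rRNA control signal was 9.24, 9.12 and 8.50 on KO 1, KO 2 and KO 3, against 7.77 to 8.44 on the WT arrays, so it was higher on all KO arrays and highest on KO 1 and KO 2. The 3 prime minus 5 prime measure of pyruvate carboxylase, an index of RNA integrity, was 3.51 to 3.58 on KO arrays and 3.99 to 4.85 on WT arrays. WT 2 also carried skeletal muscle transcripts. These measures move with the groups compared here, and their part in the results on macrophage genes was not tested.

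The 4 defining markers are present in these livers. Clec4f, a C-type lectin that in mice is largely restricted to Kupffer cells, measured 10.64, 10.73 and 11.47 on KO 1, KO 2 and KO 3, against 11.78, 11.68 and 11.62 on WT 1, WT 2 and WT 3. Adgre1, which encodes the macrophage surface receptor F4/80, measured 8.18, 8.11 and 9.15 in KO, against 9.23, 9.47 and 9.33 in WT. Csf1r, the receptor for CSF1 and IL-34, measured 11.21, 11.50 and 12.13 in KO, against 12.25, 12.29 and 12.37 in WT. In each of these 3 genes every KO array lay below every WT array, but KO 3 was much nearer to the WT arrays than to KO 1 and KO 2. Marco, a scavenger receptor for bacteria and particles, measured 4.41, 5.53 and 6.53 in KO, against 8.99, 8.08 and 7.62 in WT. Its KO arrays lay clear of the WT arrays, and the arrays within each group also spread widely.

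**Figure D1:**
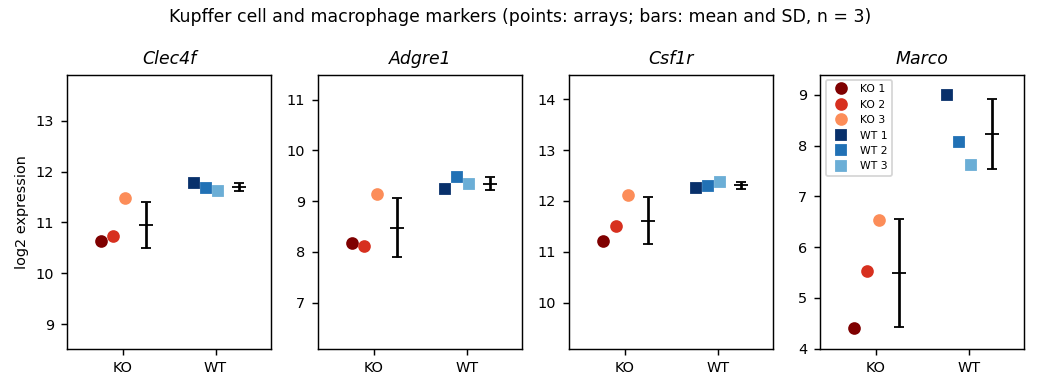
Log2 expression of Clec4f, Adgre1, Csf1r and Marco on each array, KO left and WT right, with 1 point per array and bars for the group mean and SD (n = 3 each). Every KO point lies below every WT point in all 4 panels, and KO 3 is the highest KO point in each. Each panel spans the same number of log2 units.

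The group means were 10.95 ± 0.46 in KO and 11.69 ± 0.08 in WT for Clec4f (SD, n = 3 each), a difference of -0.74 with a 95% interval of -1.31 to -0.18. Adgre1 averaged 8.48 ± 0.58 in KO and 9.35 ± 0.12 in WT, a difference of -0.87 (interval -1.59 to -0.15). For Csf1r the means were 11.61 ± 0.47 in KO and 12.30 ± 0.06 in WT, a difference of -0.69 (interval -1.27 to -0.11). Marco averaged 5.49 ± 1.06 in KO and 8.23 ± 0.70 in WT, a difference of -2.74 (interval -4.26 to -1.22), so the KO mean was 15.0% of the WT mean. The corresponding levels were 59.7% for Clec4f, 54.8% for Adgre1 and 61.9% for Csf1r. None of the 4 passed the test over all genes, with limma adjusted p of 0.285, 0.300, 0.304 and 0.208 for Clec4f, Adgre1, Csf1r and Marco. In KO the SD between mice was several times that in WT for the first 3.

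Further probe sets of 2 of the markers were read on the same arrays. Both other probe sets of Csf1r had all KO arrays below all WT arrays, at -0.77 and -0.81. That of Marco was at -1.46, with 3.75, 3.75 and 3.87 in KO, against 6.08, 5.44 and 4.23 in WT. Its KO arrays were all under the log2 level of 4 that the filter used. It passed through its WT arrays alone, so its direction was set by the filter and lends no support. Over all members, 14 further probe sets of 10 genes passed the filter on dim values, and 12 of them were lower in KO. In 6 of these 12 all KO arrays lay below all WT arrays, the Marco probe set among them. In the other lower ones the groups overlapped. The 2 that were not lower, of Msr1 at 0.28 and Ncf1 at 0.03, also had group values that overlapped.

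Promoter sequences from RefSeq are shown for the defining markers Clec4f and Marco and for Lyz2 and Cybb, the members with the smallest p. In each of these genes every KO array lay below every WT array. Adgre1 and Csf1r are named only. Each line gives the 250 bases before the annotated start (GRCm38.p6, 5′ to 3′ on the gene's strand, minus for all 4), with matches to 6 searched motifs in capitals. Clec4f lies at chr6:83656117-83656366, Marco at chr1:120505025-120505274, Lyz2 at chr10:117282273-117282522 and Cybb at chrX:9469325-9469574.
Clec4f: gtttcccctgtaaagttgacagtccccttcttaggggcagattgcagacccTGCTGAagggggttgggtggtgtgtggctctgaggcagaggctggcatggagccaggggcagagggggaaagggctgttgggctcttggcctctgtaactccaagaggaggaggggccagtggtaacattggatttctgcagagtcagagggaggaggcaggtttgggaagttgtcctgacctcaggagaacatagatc
Marco: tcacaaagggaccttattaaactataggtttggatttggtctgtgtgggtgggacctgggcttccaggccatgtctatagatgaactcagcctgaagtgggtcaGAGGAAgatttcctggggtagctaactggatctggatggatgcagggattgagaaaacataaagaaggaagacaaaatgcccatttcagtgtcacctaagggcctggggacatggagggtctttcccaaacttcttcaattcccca
Lyz2: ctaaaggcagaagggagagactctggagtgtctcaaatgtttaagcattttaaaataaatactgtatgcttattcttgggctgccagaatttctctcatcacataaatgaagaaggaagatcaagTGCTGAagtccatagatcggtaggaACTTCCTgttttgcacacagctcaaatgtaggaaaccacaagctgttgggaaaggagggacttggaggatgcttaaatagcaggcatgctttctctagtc
Cybb: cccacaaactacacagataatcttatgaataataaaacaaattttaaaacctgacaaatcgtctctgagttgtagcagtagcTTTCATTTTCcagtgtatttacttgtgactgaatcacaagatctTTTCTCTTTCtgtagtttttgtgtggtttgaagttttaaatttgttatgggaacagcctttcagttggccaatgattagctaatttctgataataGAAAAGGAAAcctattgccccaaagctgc

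The motifs were searched on both strands of the same 250 bases, in 36 promoters of 30 members and in all 32851 promoters of the table. GAGGAA, the core that PU.1 prefers, was in 16 of the 36 (44.4%), against 23.3% of all promoters, and Marco holds it 146 bases before the start. AGGAAGT, an extended ETS core that overlaps the first, was in 6 of 36 (16.7%), against 7.69% of all promoters. Lyz2 holds it on the opposite strand, where it reads ACTTCCT. A pair of TTTC cores 2 bases apart, a pattern of interferon regulatory factors such as IRF8, was in 4 of 36 (11.1%), against 2.98%, and Cybb holds it at 3 places, 1 of them on the opposite strand. TGCTGA, a half-site of Maf factors, was in 11 of 36 (30.6%), against 16.1%, among them Clec4f and Lyz2. TGACTCA, the AP-1 element, was in 3 of 36 (8.33%), against 4.46%, and CACGTG, the E-box read by MiT/TFE factors, was in 0 of 36, against 6.02%. Some members have more than 1 promoter in the table, and these shares describe letters in a window, with no test.

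Of the 40 members, 37 passed the filter on dim values, which asked for 3 or more of the 6 arrays at a log2 level of 4 or above. In 35 of them all 6 arrays reached that level, and 0 passed without any KO array at it. Fcgr1 reached it on 1 KO and 3 WT arrays and Tlr4 on 2 KO and 3 WT arrays. Neither would have passed on its KO arrays alone. The 3 that did not pass were the integrins Itgam (CD11b) and Itgax (CD11c) and the fractalkine receptor Cx3cr1, whose highest values were 2.20, 2.43 and 2.31. These genes mark monocytes, dendritic cells and some recruited macrophages, and they were at or near the lowest value the processing gave, 2.18, on all arrays.

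All 37 measured members were lower in the KO mean, where 58.4% of the 10009 tested genes were, although Lcp1 and Ncf4 turned higher with median centring and Ncf4 with quantile normalisation. None was called at an adjusted p under 0.05 in limma, where 0.170% of all genes were called and 0.150% were called lower. At an unadjusted p under 0.05, 20 of the 37 were lower in KO, against 10.1% of all genes. All 3 KO arrays lay below all 3 WT arrays in 19 of the 37. The groups lay apart in this way in 20.5% of all genes, either direction taken, and 1400 of the 10009 were below. The median difference was -0.70 over the 37 and -0.69 over all 40, while it was -0.04 over all tested genes and 0.00 over all 18193. With 3 arrays against 3, an exact permutation test of a single gene cannot give a p below 0.1.

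**Figure D2:**
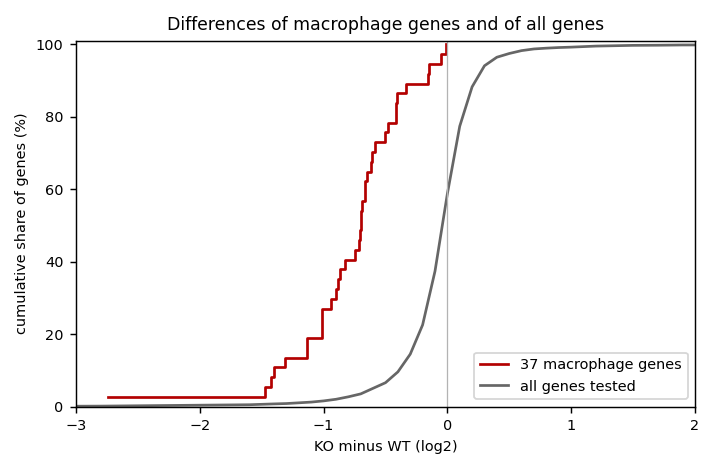
Cumulative share of genes (vertical axis, %) by their KO minus WT difference (horizontal axis, log2) for the 37 measured macrophage genes and for all 10009 tested genes. The macrophage curve lies to the left, with a median of -0.70 against -0.04, and all 37 lie below 0, of which Lcp1 and Ncf4 turned above 0 with median centring and Ncf4 with quantile normalisation.

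Genes that identify Kupffer cells had a median difference of -1.01 over 5 members. Cd5l, a secreted protein of tissue macrophages that is also called AIM, measured 10.76, 10.83 and 11.73 on KO 1, KO 2 and KO 3, against 12.17, 12.21 and 11.99 in WT (difference -1.01, limma adjusted p = 0.250). Folr2, the folate receptor of resident macrophages, measured 6.51, 6.84 and 8.53 in KO, against 8.33, 8.96 and 8.85 in WT. Timd4, the phosphatidylserine receptor of long-lived resident macrophages, measured 4.42, 5.54 and 6.51 in KO, against 6.86, 6.44 and 7.10 in WT. For Folr2 and Timd4 the groups overlapped, because KO 3 reached the WT range while KO 1 and KO 2 lay below it. Their differences were -1.42 (limma adjusted p = 0.336) and -1.31 (limma adjusted p = 0.345).

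Among the scavenger and mannose receptors Marco stood at -2.74, and the other 4 ranged from -1.40 to -0.15. Cd68, the lysosomal glycoprotein of macrophages, measured 4.99, 5.74 and 7.43 in KO, against 7.24, 7.67 and 7.46 in WT, so that KO 3 lay among the WT arrays. Cd163, the haptoglobin-haemoglobin receptor, measured 7.54, 8.63 and 9.02 in KO, against 9.17, 9.15 and 8.97 in WT, and KO 1 lay furthest below. The mannose receptor Mrc1, which liver sinusoidal endothelium also makes, differed by -0.41. Msr1, the class A scavenger receptor, differed by -0.15, with a 95% interval of -0.38 to 0.08. Marco and Msr1 belong to the same receptor class, and the difference between them was not tested.

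Fc receptors and their signalling adaptors were lower together on KO 1 and KO 2. Fcer1g, the Fc receptor gamma chain, measured 7.05, 7.21 and 7.92 in KO, against 8.18, 8.24 and 8.24 in WT (difference -0.82, limma adjusted p = 0.257). Tyrobp, the adaptor DAP12, measured 8.55, 8.91 and 9.79 in KO, against 10.01, 10.22 and 10.05 in WT (difference -1.01, limma adjusted p = 0.287). In both genes the groups did not overlap and KO 3 was the nearest KO array to WT. Fcgr3, a low-affinity IgG receptor, measured 7.23, 7.40 and 7.74 in KO, against 8.29, 8.31 and 7.92 in WT (difference -0.71, limma adjusted p = 0.231). Fcgr1, the high-affinity IgG receptor, measured 2.73, 3.9985 and 5.25 in KO, against 5.22, 5.02 and 5.14 in WT. KO 3 was the highest of all 6 arrays for Fcgr1, and only that KO array reached the filter level.

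Receptors that sense microbes had a median of -0.88 over 5 members. Cd14, the endotoxin co-receptor, measured 4.15, 5.42 and 5.86 in KO, against 6.65, 6.68 and 6.53 in WT (difference -1.48, limma adjusted p = 0.270). Ly86, which encodes MD-1, the partner of the TLR4 relative CD180, measured 6.13, 6.37 and 7.10 in KO, against 7.40, 7.68 and 7.57 in WT (difference -1.02, limma adjusted p = 0.242). Both kept the groups apart, with KO 1 furthest from WT. The C-type lectins Clec4n (dectin-2) and Clec7a (dectin-1), receptors for fungal glycans, differed by -0.88 and -0.50, and KO 3 was the highest array of all 6 for each. Tlr4, the endotoxin receptor, differed by -0.34, but its values of 3.97 to 4.31 in KO and 4.31 to 4.81 in WT were dim and 3 arrays were tied.

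Both receptors for apoptotic cells of the TAM kinase family were lower in the KO mean. Mertk measured 9.31, 9.69 and 9.62 in KO, against 10.12, 9.83 and 9.92 in WT (difference -0.42, limma adjusted p = 0.287), with no overlap. Axl measured 6.72, 6.92 and 7.81 in KO, against 7.72, 7.97 and 7.71 in WT, and KO 3 lay within the WT range. Mertk is 1 of 4 members for which KO 3 was not the single highest KO array.

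The phagocyte oxidase makes superoxide for killing microbes, and 2 of its 3 subunits in the list kept the groups apart, against 20.5% of all genes in either direction. Cybb, the catalytic subunit gp91phox, measured 7.39, 7.70 and 8.15 in KO, against 8.62, 8.72 and 8.61 in WT (difference -0.90, 95% interval -1.38 to -0.42, limma adjusted p = 0.202). The organiser subunit Ncf1 (p47phox) measured 4.82, 5.04 and 5.33 in KO, against 5.84, 5.72 and 5.48 in WT (difference -0.62, limma adjusted p = 0.242). A further Ncf1 probe set past the filter was at 0.03, with overlapping groups. Those of Cybb were at -1.06, with overlap, and at -0.74, with all KO arrays below all WT arrays. Ncf4 (p40phox) was at 4.61 to 4.65 in KO and 4.65 in WT. With 4 arrays tied it cannot show a difference.

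Genes of the phagosome and lysosome had a median of -0.67 over 6 members, and in 5 of the 6 the groups did not overlap, against 20.5% of all genes in either direction. Lyz2, macrophage lysozyme, had the smallest p of all members and measured 9.71, 10.03 and 10.57 in KO, against 11.28, 11.35 and 11.07 in WT. The difference was -1.13 (95% interval -1.69 to -0.57, limma adjusted p = 0.194), so the KO mean was 45.6% of the WT mean. Ctss, the protease cathepsin S, measured 9.66, 9.94 and 10.78 in KO, against 10.96, 11.14 and 11.10 in WT (difference -0.94, limma adjusted p = 0.285). In Lyz2 every KO array stood apart from WT, and in Ctss KO 3 was close to it.

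Mpeg1, the pore-forming perforin-2, measured 9.71, 9.92 and 10.18 in KO, against 10.56, 10.83 and 10.42 in WT (difference -0.67, limma adjusted p = 0.226). Laptm5, a lysosomal membrane protein of haematopoietic cells, measured 7.86, 8.07 and 8.37 in KO, against 9.003, 8.71 and 8.58 in WT (difference -0.66, limma adjusted p = 0.242). Both showed a gap between the groups that was narrower than the range within KO. Pld4, an endolysosomal exonuclease, measured 5.96, 5.96 and 6.46 in KO, against 6.64, 6.62 and 6.87 in WT (difference -0.59, limma adjusted p = 0.253). Slc11a1, the NRAMP1 metal transporter of phagosomes, differed by -0.48, and KO 3 lay within the WT range.

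The myeloid transcription factor Spi1 (PU.1) differed by -0.16, with 4.61 to 4.88 in KO and 4.89 to 5.03 in WT. Its groups did not overlap, but the 95% interval was -0.41 to 0.09. Ptprc, the leukocyte common antigen CD45, measured 7.77, 8.06 and 8.66 in KO, against 8.71, 8.996 and 8.60 in WT, and KO 3 lay within the WT range. Cytoskeletal and cytoplasmic genes of leukocytes ranged from -0.70 for Lst1, through -0.69 for Aif1 (IBA1) and -0.41 for the actin regulator Coro1a, to -0.05 for the actin bundler Lcp1 (L-plastin). In none of these 4 were the groups apart. Lcp1 measured 10.52 to 10.78 in KO and 10.58 to 10.75 in WT, with a 95% interval of -0.28 to 0.18, and its other probe set was at -0.03.

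**Figure D3:**
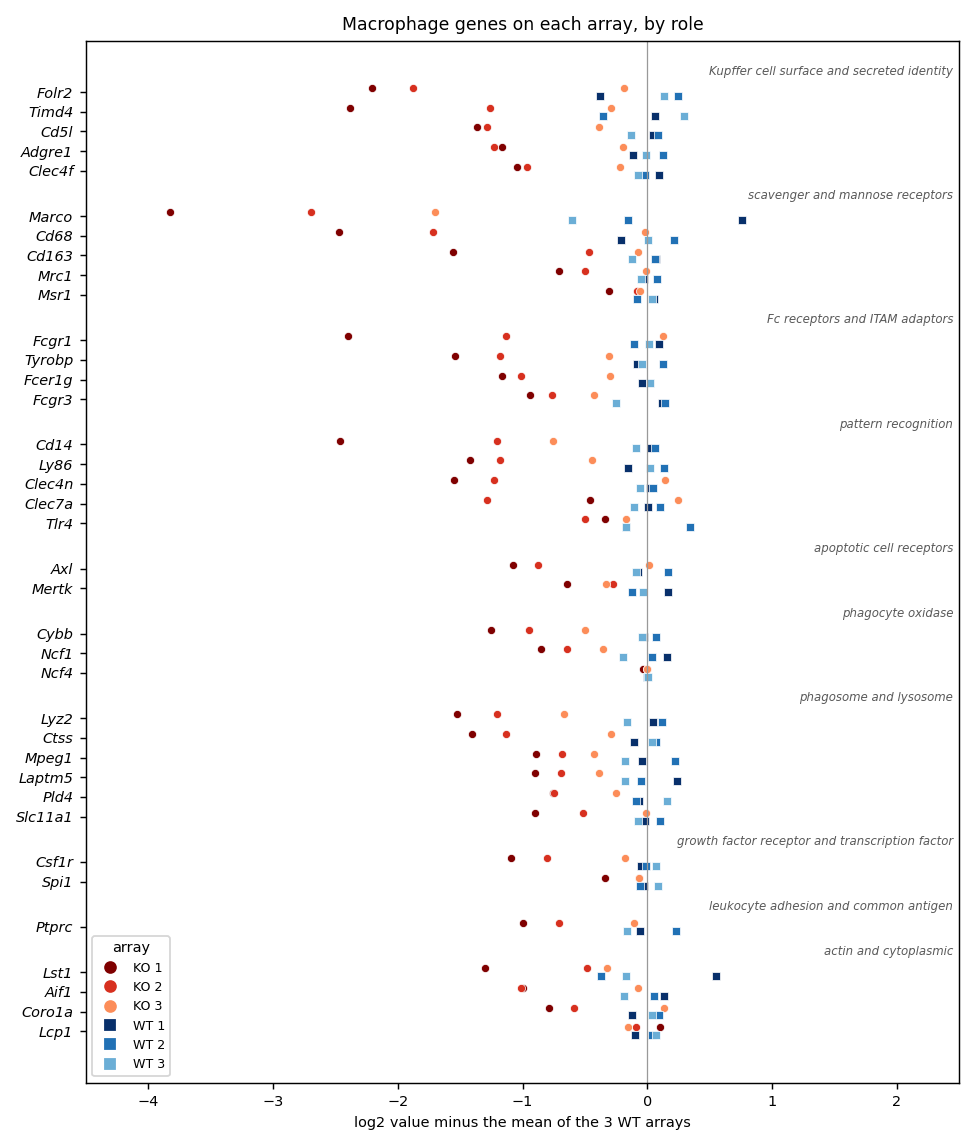
Log2 value minus the mean of the 3 WT arrays (horizontal axis) for each of the 37 measured members, grouped by role, with KO arrays as circles and WT arrays as squares. KO 1 and KO 2 lie left of the WT points in nearly all rows, KO 3 lies right of both other KO arrays in 33 of the 37 rows and right of all WT points in 4, and Lcp1 and Ncf4 show no separation.

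The 3 KO livers differed among themselves in these genes. Averaged over the 37 members, the deviation from the WT mean was -1.22 on KO 1, -0.89 on KO 2 and -0.24 on KO 3, against -0.06 to 0.04 on the WT arrays. KO 1 was the lowest KO array in 32 of 37 members, against 32.5% of all genes. KO 3 was the highest KO array in 33 of 37, against 34.9% of all genes. KO 1 and KO 2 both lay below all WT arrays in 34 of 37 members, against 23.5% of all genes, while KO 3 did so in 20, against 33%. KO 3 lay within the WT range in 13 members, against 45.6% of all genes, and above it in 4, against 21.4% of all genes. The SD between mice was larger in KO than in WT in 36 of 37 members, against 55.7% of all genes. For Lamtor2, KO 3 lay at 10.11, between KO 1 and KO 2. The 18S rRNA control was nearer to WT on KO 3 than on the other KO arrays. The pyruvate carboxylase measure was 3.54 on KO 3, between KO 2 at 3.51 and KO 1 at 3.58. The part of any of these in the order of the KO arrays was not tested.

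The comparison without KO 3 was among the fits that left out each array in turn. It is set out here because KO 3 lay nearest to WT in these same genes. Larger differences and a smaller spread within KO come with that choice, so the calls below describe KO 1 and KO 2 and lend no support to the comparison of all 6 arrays. With the 2 remaining KO arrays against 3 WT arrays, 14 of the 37 members were called lower in limma (adjusted p from 0.0253 to 0.0476), against 1.14% of all tested genes. They were Adgre1, Clec4f, Cd5l, Folr2, Fcer1g, Tyrobp, Ly86, Clec4n, Axl, Cybb, Lyz2, Ctss, Csf1r and Aif1, with differences from -2.04 for Folr2 to -0.95 for Csf1r. The median over the 37 members was then -0.98. Marco was not among them (difference -3.26, limma adjusted p = 0.0822), since its values spread within both groups. No member was called in limma with any other array left out, or with KO 3 and WT 2 both left out, and 13 to 29 members were lower at an unadjusted p under 0.05 in those fits, against 6.7% to 11.4% of all genes. Over the alternatives other than leaving out KO 3, the smallest limma adjusted p of any member ran from 0.114 to 0.483.

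**Figure D4:**
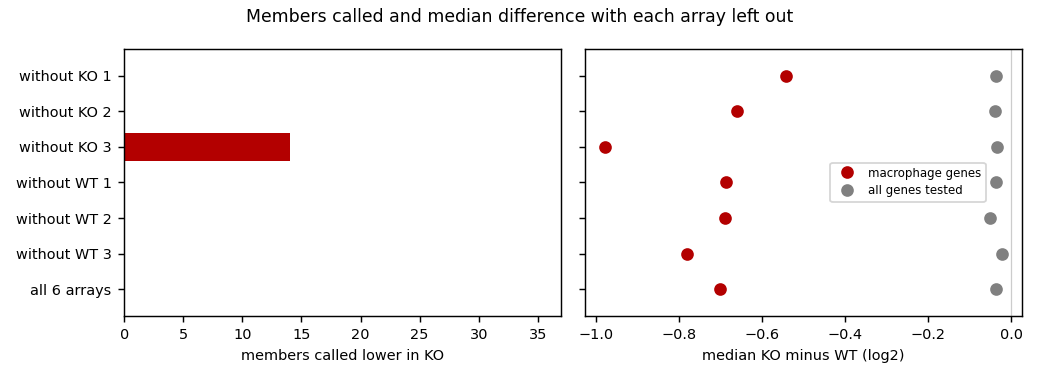
Left, number of members called lower in KO at a limma adjusted p under 0.05 with each array left out and with all 6 arrays. Right, median KO minus WT difference (log2) over the 37 macrophage genes and over all tested genes for the same fits. The count is 14 without KO 3 and 0 elsewhere, and the macrophage median runs from -0.98 to -0.54.

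Other genes of the same cells and pathways were read from lists of genes that are not among the 40. Of 12 measured further Kupffer cell genes 11 were lower in the KO mean, the median being -0.64, 5 lower at an unadjusted p under 0.05 and 0 called. Over all tested genes 58.4% were lower and 10.1% were lower at that p in limma. C1qa, a chain of complement C1q that Kupffer cells secrete, measured 9.96, 10.17 and 10.93 in KO, against 11.06, 11.38 and 11.32 in WT. C1qc and properdin (Cfp) differed by -0.86 and -0.73. Vsig4, the complement receptor CRIg, measured 10.02, 10.23 and 11.23 in KO, against 11.12, 11.48 and 11.40 in WT. In Vsig4 KO 3 was within the WT range.

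Of 8 measured further oxidase and ITAM signalling genes 6 were lower in the KO mean, the median being -0.59, 4 at an unadjusted p under 0.05 and 0 called in limma. Among all tested genes 58.4% were lower and 10.1% were lower at that p. Cyba, the p22phox partner of Cybb, differed by -0.84, Rac2, the GTPase of the oxidase, by -1.04, and Pirb, an inhibitory receptor, by -0.87. The group of CSF1 ligands and macrophage transcription factors was mixed, with a median of -0.13 and 0 called in limma. In it 7 of 12 were lower (58.3%), much the same share as among all genes. At an unadjusted p under 0.05 in limma 4 were lower (33.3%). Irf8, a myeloid factor, measured 5.74, 6.44 and 6.44 in KO, against 6.96, 6.86 and 6.99 in WT. Csf2rb, the shared chain of the GM-CSF receptor, differed by -0.47 and Cebpa, which hepatocytes also express, by -0.32. Id3, a factor of Kupffer cell development that other liver cells also make, measured 9.25, 9.04 and 8.59 in KO, against 9.13, 9.51 and 9.56 in WT, so that KO 3 was the lowest array. Id3 was chosen after its values were seen.

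In the endotoxin pathway beyond Cd14, Tlr4 and Ly86, 8 of 9 measured genes were lower, against 58.4% of all genes, but the median was -0.10. At an unadjusted p under 0.05 in limma 2 were lower (22.2%), against 10.1% of all genes, and 0 were called. Tlr2 and the TLR4 partner Ly96 (MD-2) differed by -0.69 and -0.33, and the shared adaptor Myd88 by -0.10. For markers of monocytes and recruited macrophages 7 of 12 genes were measured, with a median of -0.56 and 0 called in limma. Of the 7, 5 were lower (71.4%), against 58.4% of all genes. At an unadjusted p under 0.05 in limma 1 was lower (14.3%), against 10.1% of all genes. That gene was Lgals3 (galectin-3), at 6.40, 6.42 and 7.73 in KO, against 8.14, 8.26 and 7.53 in WT. Ccr2, the chemokine receptor of inflammatory monocytes, was at 4.91 to 4.95 in KO and 4.91 in WT. The summed linear signal of the 12 genes overlapped between groups, at 3131 to 6039 in KO and 4538 to 9608 in WT.

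Markers of other liver cells were read on the same arrays. The median was -0.33 for liver endothelial genes, of which 16 of 17 were lower, against 58.4% of all genes. At an unadjusted p under 0.05 in limma 8 were lower, against 10.1% of all genes. All KO arrays lay below all WT arrays in 10, where 20.5% of all genes had the groups apart in either direction. Lyve1, a hyaluronan receptor, and Thbd, thrombomodulin, fell by 1.32 and 0.95 on the log2 scale (limma adjusted p = 0.0353 for each). They were the 2 endothelial genes called in limma, where 0.150% of all tested genes were called lower. Among stellate cell and fibroblast genes the median was -0.38, and 13 of 14 were lower, against 58.4% of all genes. In limma 0 were called and 6 were lower at an unadjusted p under 0.05, against 10.1% of all genes. Mean deviations from WT on KO 1, KO 2 and KO 3 were -0.60, -0.38 and -0.24 for the endothelial genes and -0.61, -0.37 and -0.18 for the stellate genes, against -1.22, -0.89 and -0.24 for the macrophage genes. The difference between these lists was not tested.

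Lyve1 measured 7.38, 7.30 and 7.64 in KO, against 8.82, 8.64 and 8.82 in WT, so here KO 3 stayed with the other KO arrays. The summed linear signal of the 17 endothelial genes was 9171 to 11873 in KO and 11257 to 13159 in WT, and that of the 15 stellate genes 16072 to 21244 in KO and 22113 to 29272 in WT. For the 40 macrophage genes the sum was 14805 to 25385 in KO and 29614 to 31865 in WT. Hepatocyte genes had a median of -0.04 over 11 genes, with 7 lower (63.6%, against 58.4% of all genes) and 0 called in limma. Only 1, the glucose-6-phosphatase gene G6pc at 1.24, was higher at an unadjusted p under 0.05 in limma. Of all 10009 tested genes 432 were higher at that p. Mitosis genes had a median of -2.32 over 9 genes, all lower and 4 called lower in limma. Over all tested genes 58.4% were lower and 0.150% were called lower. Mean deviations of the mitosis genes were -2.82, -2.71 and -1.82 on KO 1, KO 2 and KO 3. The part of any of these cell types or of cell division in the macrophage values was not tested.

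**Figure D5:**
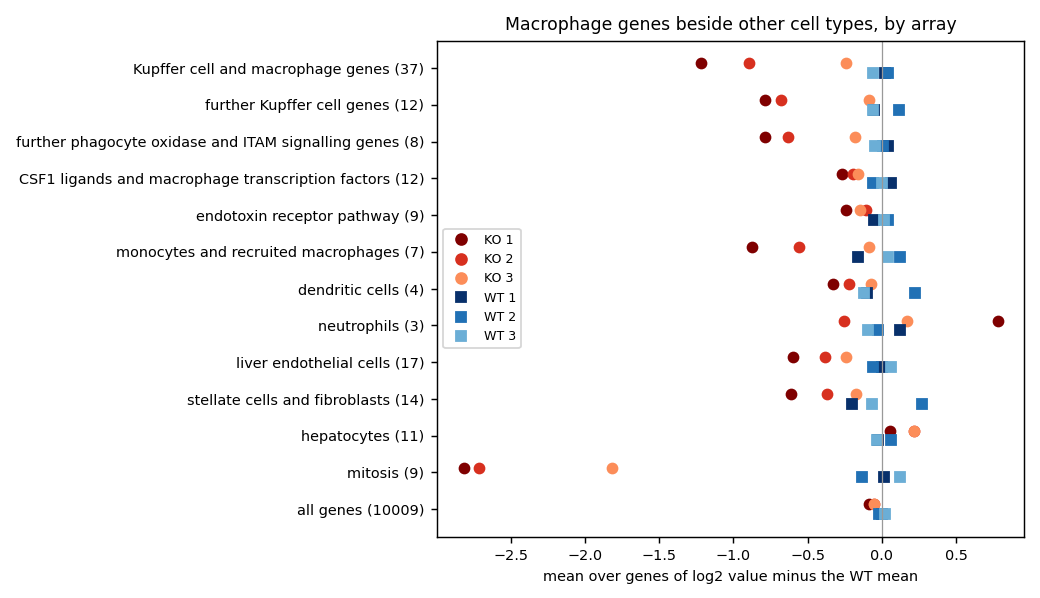
Mean over the measured genes of a list (number in brackets) of the log2 value minus the WT mean, for each array, with KO arrays as circles above WT arrays as squares. The macrophage genes lie at -1.22, -0.89 and -0.24 on KO 1, KO 2 and KO 3, further from 0 on KO 1 and KO 2 than the endothelial, stellate and hepatocyte lists, and the mitosis genes lie furthest left.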

How the data were processed

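Expression was measured on Affymetrix mouse arrays in 6 livers, and the authors deposited a log2 value for each probe set and array. The submitters' processing notes name GCRMA 2.16.0 and R 2.9.1. Their scale was inferred from a range of 2.18 to 16.33. GCRMA sets dim probe sets to low tied values, so small differences of dim genes carry little information. Of all values here, 28.9% were at the single lowest value. Of 45101 probe sets, 34945 had 1 gene symbol, 932 several and 9160 none, and 64 were controls. Each of 18193 genes was represented by its brightest probe set, and 10009 passed the filter. KO and WT were compared in limma 3.58.1 under R 4.3.3 (lmFit, eBayes, two-sided, no covariates), with Benjamini-Hochberg adjustment over the 10009 genes and calls at 0.05. The fit was tested on simulated data. Precision is limited by the number of arrays.

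The members, their roles and the 16 other gene lists were chosen with earlier results of these data known, so no list was tested. Full values were given for the 4 markers and the 14 members with the smallest p; other members with values for every array were chosen after their values were seen. From each other list up to 3 genes with the smallest p and its first gene could be named, with exceptions identified in the text or chosen after seeing values. Of 205 listed other genes, 182 had a probe set. Alternatives covered the filter, normalisation, floor, probe set choice, variance model, array weights, a replicate block and each array left out, and 1 was added after seeing the data. Promoters came from RefSeq (GRCm38.p6). Figures were drawn with matplotlib 3.10.9.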

Additional observations from a re-analysis of the deposited data

How the results depend on the processing

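The count of called members was 0 in limma in 18 of 19 alternatives and 0 to 14 with 1 array left out, the 14 coming without KO 3. The median difference of the members stayed between -0.98 and -0.54, against -0.05 to 0.03 for all genes. The number of all genes called, 17 with all arrays, was 1 to 140 with 1 array left out, and the number called in the other lists, 6 with all arrays, was 1 to 15. These 2 counts were 3 and 1 with no filter, 10 and 2 with the stricter filter, 8 and 3 with a filter on the mean, 11 and 3 with every probe set tested, 3 and 1 with ordinary variance, 0 and 0 with the replicate block, and 3 and 2 when KO 3 and WT 2 were both dropped. They were 25 and 7 with values below 4 set to 4, 24 and 7 with trend and robust settings, 19 and 6 with array weights, 18 and 6 with quantile normalisation or median centring, and 17 and 4 with the mean of the probe sets. Some of these alternatives used fewer arrays or tested other genes, and why the counts moved was not tested. Lcp1 and Ncf4 changed sign. Lcp1 was at 0.015 with median centring, -0.13 to 0.0014 with 1 array left out (the highest without KO 3) and 0.019 when KO 3 and WT 2 were both dropped, and Ncf4 at 0.042 with quantile normalisation and 0.052 with median centring.

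Whether same-numbered arrays of the groups belong together was not tested. Deviations within a group of 3 sum to 0, so the correlations given here depend on each other. Deviations of same-numbered arrays from their group means correlated at -0.09, -0.08 and -0.14 for numbers 1, 2 and 3. Between arrays with different numbers the correlations ran from -0.07 to 0.16, so same-numbered arrays were not the more alike. With the replicate block 0 members were called in limma, 19 were lower at an unadjusted p under 0.05, against 9.08% of all genes, and the median was -0.70.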

Other observations

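Blood leukocyte markers were mostly too dim to read in these livers. Of neutrophil genes 3 of 11 were measured and 8 reached a log2 level of 4 on no array, with 0 called in limma and 0 at an unadjusted p under 0.05. The calprotectin subunit S100a8 measured 6.66, 4.55 and 5.49 on KO 1, KO 2 and KO 3, against 5.49, 5.05 and 4.89 in WT, so KO 1, the array lowest in most macrophage genes, was the highest here. Of T and NK cell genes 2 of 12 were measured, the chemokine gene Ccl5 at -1.11 and Cd4 at 0.06. Of B cell genes 1 of 8 was measured, Cd79b at 0.22. Dendritic cell genes had 4 of 10 measured with a median of -0.15, and Cd83 differed by -0.56. None of these was called in limma, and Ccl5 alone had an unadjusted p under 0.05.

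The erythroid gene Alas2, of haem synthesis, measured 10.04, 9.53 and 9.12 on the KO arrays, against 8.99, 9.10 and 9.57 on the WT arrays. The biliary gene Epcam differed by 0.08. Skeletal muscle genes were high on WT 2 alone, where the myosin light chain gene Mylpf measured 12.41, against 3.92 to 4.08 in KO livers and 3.92 and 4.15 in WT 1 and WT 3. None of these 3 genes had an unadjusted p under 0.05 in limma.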
